A study of Homo sapiens with 6 samples.

Results

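Cyclic nucleotide phosphodiesterases are the enzymes that break down cAMP, and the transcripts described here are those of 10 cAMP-hydrolysing members of the family: PDE1C, PDE3B, PDE4A, PDE4B, PDE4D, PDE7A, PDE7B, PDE8A, PDE8B and PDE10A. They were taken by gene name from a table of 19823 genes, where all 10 were present. Polyadenylated RNA was sequenced from 6 samples of iNeurons, glutamatergic excitatory neurons made from WTc11, an established human induced pluripotent stem cell line, by doxycycline-inducible expression of the transcription factor NGN2. In all 6 samples the RNA-binding protein RBM12 was knocked down by CRISPR interference, in neurons of the parental line, which rely on their native β2-adrenergic receptors. Of these samples, 3 were left untreated and 3 received isoproterenol, a β-adrenergic agonist that raises cAMP, and the labels state no dose or exposure time. The starting line was described in the study's methods as a published clonal line that also expresses dCas9-KRAB, the repressor used for the knockdown.

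Cells make cAMP with adenylyl cyclases, which receptors such as the β2-adrenergic receptor switch on through the G protein Gs, and phosphodiesterases end the signal by hydrolysing cAMP to AMP. The families differ in how they are controlled: PDE1 enzymes need calcium and calmodulin, PDE3 enzymes are inhibited by cGMP, PDE4, PDE7 and PDE8 enzymes are specific for cAMP, and PDE10A hydrolyses both cAMP and cGMP. In neurons they shape where and for how long cAMP reaches protein kinase A, and transcription of some phosphodiesterase genes is itself known to be raised by cAMP, which makes them a form of feedback.

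The comparison of isoproterenol with untreated samples asks which of these transcripts change when the receptor is activated in RBM12-depleted neurons. The clearest difference was in PDE1C, which was 13.5% higher with isoproterenol, and the next was in PDE4D, which was 9.25% higher. The other 6 members whose mean reached 100 normalized read counts differed by -6.68% (PDE3B) to 3.58% (PDE4B). PDE7B and PDE8B were detected at few reads, and their differences could not be resolved. No member passed an adjusted p of 0.05 in limma without pairing of the samples, and PDE1C alone passed when same-numbered samples were paired, a call that DESeq2 with the same pairing did not make.

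Depth, cell identity and the knockdown were examined first. The 6 samples held between 18116816 and 21488793 reads assigned to genes, and mitochondrial genes took 3.44% to 4.54% of them. The vesicular glutamate transporters SLC17A6 and SLC17A7 had mean normalized counts of 13440 and 3055 in untreated samples, while GAD1, which makes GABA, had 16.7. All 7 glutamatergic neuron markers were detected, and their sum ran from 55075.1 to 56405.5 in untreated and from 53931.0 to 58340.7 in isoproterenol samples. Among these, TUBB3 (69.2 to 94.4 over the 6 samples) and NEUROD1 (3.9 to 12) were low. The summed GABAergic markers were 55.3 to 60 in untreated and 66.9 to 79.0 in isoproterenol samples, and their part in the results was not tested. The 1 of 4 astrocyte markers in the table, AQP4, ran from 102.4 to 133.5 in untreated and from 90.3 to 102.6 in isoproterenol samples, and its part in the results was not tested. Summed oligodendrocyte markers (3 of 3) ran from 118.0 to 153.9 and from 96.8 to 143.0. Of the pluripotency markers, 2 of 3 were in the table and summed to at most 28.8 normalized counts. The 3 microglia and 3 dividing-cell markers were not analysed here. RBM12 itself was lower with isoproterenol (means of 263.3 and 221.7, log2 fold change -0.25, limma adjusted p = 0.607, or 0.131 in the blocked fit), and since control-guide neurons were not analysed here, the extent of the knockdown could not be measured.

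The sequences that cAMP-responsive transcription acts through are shown first. CREB, the transcription factor that protein kinase A activates, binds the cAMP response element TGACGTCA, which reads the same on both strands, or its shorter form TGACG, read as CGTCA on the other strand. These letters were searched for in RefSeq promoter windows (GRCh38.p14) of 300 bases, 250 before and 50 after each start site. Windows were found for 8 members, 35 windows in all. The whole element lay in 2 of these windows, in PDE4A and PDE7B, against 1.85% of all 35116 windows in the table. The whole or the shorter form lay in 3 of the 35, adding PDE4D, against 24.6% of all windows. Counted by gene, the whole element lay in 2 of the 8 members with windows, against 2.25% of all genes with windows. Either form lay in 3 of the 8, PDE4A, PDE7B and PDE4D, against 28.4% of genes. The members had more windows per gene (35 over 8 members, against 35116 over 27305 genes). A match was thus easier to find in a member, and the shares by gene are not like for like. The stretch around the match in each of these genes is given below, in the direction of transcription, with the matched letters in capitals.

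PDE4A, chr19:10416759-10416788, plus strand: cgtcagtccgcTGACGTCAcgccccaggag

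PDE7B, chr6:135851535-135851564, plus strand: actaaacccttTGACGTCActcttgaaatg

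PDE4D, chr5:59587665-59587694, minus strand: agagggccccctTGACGccagcacatcccc

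In PDE4A the element began 3 bases before 1 of 5 annotated start sites, and the same window held 5 further copies of the shorter form. In PDE7B it began 155 bases before the single start site listed, and in PDE4D the shorter form began 57 bases before 1 of 8. No match was found in the 6 windows of PDE1C, the 6 of PDE4B, the 3 of PDE8A, the 4 of PDE8B or the 2 of PDE10A. These matches describe the letters in the windows and do not show where a factor was bound.

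PDE4 enzymes carry much of the cAMP hydrolysis in brain and are the targets of the inhibitor rolipram. PDE4D (ENSG00000113448, chr5:58969038-60522120 on GRCh38) was measured at 1475.5, 1347.9 and 1486.5 normalized counts in the untreated samples, numbered 1 to 3, and at 1668.4, 1454.3 and 1585.8 in isoproterenol replicates 1 to 3. The groups overlapped, because isoproterenol replicate 2 fell below untreated replicates 1 and 3, but each isoproterenol sample lay above the untreated sample of the same number. The means were 1437 ± 77.0 and 1569 ± 108 (SD, n = 3 each). The log2 fold change was 0.13 (SE 0.060, 95% interval 0.00 to 0.25), with an adjusted p of 0.648 in limma. With the replicate block the adjusted p was 0.0551 in limma, 0.0484 in edgeR and 0.747 in DESeq2, so the call depended on the tool. Without untreated replicate 2 its log2 fold change was 0.08, and over the unpaired fits with 1 sample left out the limma adjusted p ran from 0.254 to 0.941.

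PDE4B (ENSG00000184588, chr1:65792514-66374579), another enzyme specific for cAMP, was measured at 1564.2, 1446.6 and 1467.9 normalized counts in untreated replicates and at 1577.6, 1529.2 and 1532.5 in isoproterenol replicates. Each isoproterenol sample again lay above its untreated partner, by 0.01 to 0.08 on the log2 scale, and the groups overlapped. PDE4B had a log2 fold change of 0.05 (SE 0.053, interval -0.06 to 0.16, limma adjusted p = 0.862, and 0.602 with the block). This interval overlapped that of PDE1C (0.05 to 0.32), and the difference between PDE4B and PDE1C was not tested.

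PDE4A (ENSG00000065989, chr19:10416773-10469630), whose promoter held the whole response element, was measured at 557.6, 640.6 and 616.5 normalized counts in untreated replicates and at 582.7, 612.4 and 545.7 in isoproterenol replicates. It was lower in pairs 2 and 3 and higher in pair 1, with overlapping groups. Its log2 fold change was -0.06 (SE 0.076, interval -0.22 to 0.10, limma adjusted p = 0.898).

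**Figure D1:**
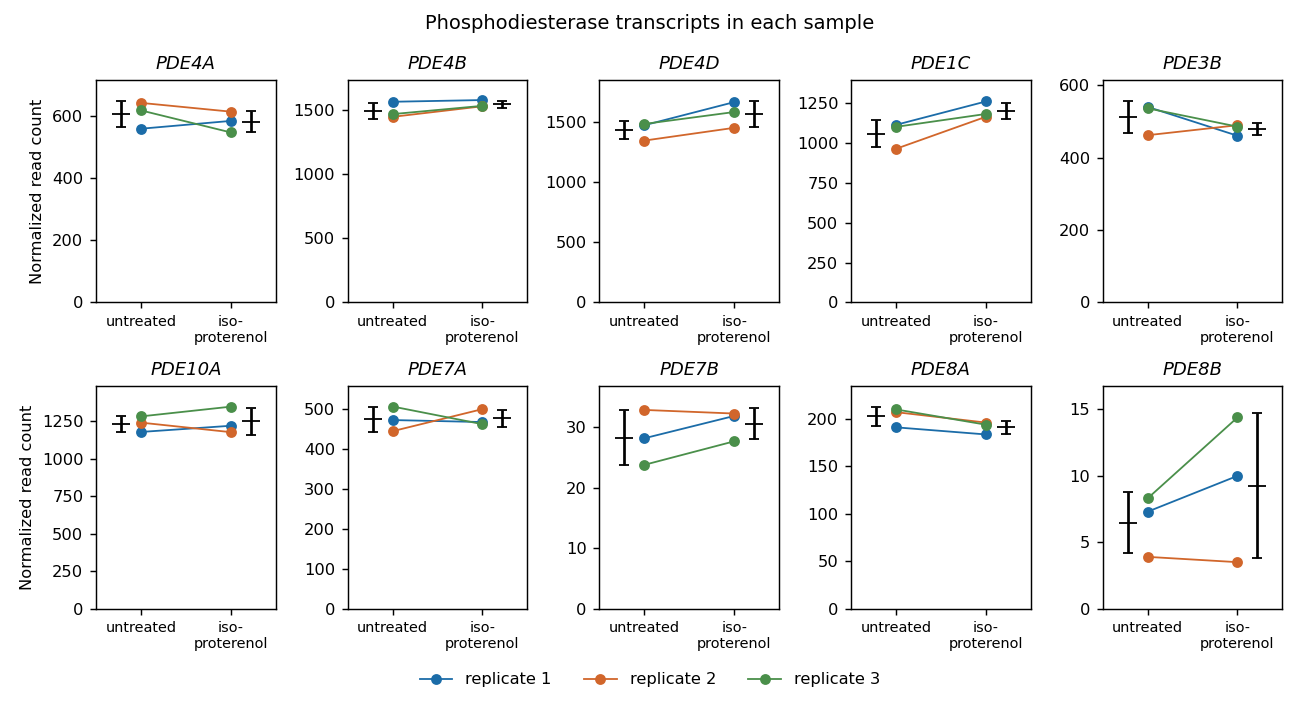
Normalized read counts (vertical axes, from 0, 1 scale per gene) of the 10 phosphodiesterases in untreated and isoproterenol samples. Lines join samples with the same replicate number, and black bars give the mean ± SD of 3 samples. PDE1C is the gene whose groups do not overlap (964.7 to 1115.2 against 1165.9 to 1262.2), and its 3 lines all rise, as do those of PDE4B and PDE4D.

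PDE1C (ENSG00000154678, chr7:31751179-32428131) encodes an enzyme that is switched on by calcium and calmodulin and hydrolyses both cAMP and cGMP. It was measured at 1115.2, 964.7 and 1102.7 normalized counts without treatment (replicates 1 to 3), and at 1262.2, 1165.9 and 1183.7 in isoproterenol replicates 1 to 3. All 3 isoproterenol samples lay above all 3 untreated samples, with untreated replicate 2 the lowest of the 6. The means were 1061 ± 83.5 and 1204 ± 51.2 (SD, n = 3 each), and the differences within pairs 1, 2 and 3 were 0.18, 0.27 and 0.10 on the log2 scale.

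The log2 fold change of PDE1C was 0.18 (SE 0.064, 95% interval 0.05 to 0.32). Its adjusted p over all 18130 tested genes was 0.495 in limma without pairing and 0.00722 with the replicate block, where PDE1C rose. Among the blocked tests edgeR also called it (adjusted p = 0.00601) and DESeq2 did not (0.443). Without pair 2 the call was lost, with a log2 fold change of 0.14 and a blocked limma adjusted p of 0.174, against adjusted p-values of 0.0422 without pair 1 and 0.00942 without pair 3. Without untreated replicate 2 alone, the unpaired log2 fold change was 0.12. On PDE1C by itself, the two-sided exact permutation test gave p = 0.1 between the groups and p = 0.25 within pairs, each the smallest that 3 against 3 samples or 3 pairs can give.

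Over the 6 samples, the genes whose log2 level followed that of PDE1C most closely were DNER, a transmembrane protein of neurons (r = 0.995), SNHG14, a long noncoding RNA (r = 0.991), and DAB2IP, a Ras GTPase-activating protein (r = 0.987), among 11586 genes whose mean reached 100 normalized counts. DNER ran over a narrow range, from 22131.4 to 23084.6 normalized counts. With 6 samples, 240 genes had an r above 0.9 with PDE1C, so this likeness is a description and no more.

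PDE3B (ENSG00000152270, chr11:14643804-14872044), which cGMP inhibits, was measured at 540.9, 462.5 and 536.9 normalized counts in untreated replicates and at 461.0, 490.1 and 486.2 in isoproterenol replicates. The samples of pair 2 went up and those of pairs 1 and 3 went down, and the groups overlapped through untreated replicate 2. Its log2 fold change was -0.10 (SE 0.081, interval -0.27 to 0.07, limma adjusted p = 0.818, and 0.544 with the block).

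PDE10A (ENSG00000112541, chr6:165327287-165988117), a dual-specificity enzyme best known from striatal medium spiny neurons, was measured at 1179.9, 1242.4 and 1283.8 normalized counts in untreated replicates and at 1221.3, 1178.6 and 1348.9 in isoproterenol replicates. Replicate 3 was the highest sample in both groups, and the group means of 1235 ± 52.3 and 1250 ± 88.6 (SD, n = 3 each) differed by less than the spread within either group. The log2 fold change was 0.02 (SE 0.061, interval -0.11 to 0.14, limma adjusted p = 0.974), and its sign depended on which sample was left out.

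PDE7A (ENSG00000205268, chr8:65714334-65842322), a cAMP-specific enzyme insensitive to rolipram, was measured at 472.0, 444.1 and 505.9 normalized counts in untreated replicates and at 467.0, 499.4 and 461.6 in isoproterenol replicates. The groups overlapped, and the difference was upward in pair 2 and downward in pairs 1 and 3. PDE7A had a log2 fold change of 0.01 (SE 0.080, interval -0.16 to 0.17, limma adjusted p = 0.992), again with a sign that depended on the samples used.

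PDE8A (ENSG00000073417, chr15:84980440-85139145), a cAMP-specific enzyme with high affinity for its substrate, was measured at 191.1, 207.1 and 210.0 normalized counts in untreated replicates and at 183.6, 196.1 and 193.9 in isoproterenol replicates. It was the single member that was lower in all 3 pairs, by 0.06, 0.08 and 0.12 on the log2 scale, although the groups overlapped. PDE8A had a log2 fold change of -0.08 (SE 0.11, interval -0.31 to 0.15, limma adjusted p = 0.901, and 0.785 with the block), and it kept its sign with any 1 sample left out, between -0.13 and -0.06.

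PDE7B and PDE8B were near the lower end of what these libraries could measure. PDE7B (ENSG00000171408, chr6:135851701-136195574), the second PDE7 gene and the second member with a whole response element, was measured at 28.2, 32.9 and 23.8 normalized counts in untreated replicates and at 31.9, 32.3 and 27.7 in isoproterenol replicates. PDE8B (ENSG00000113231, chr5:77210449-77428256) was measured at 7.3, 3.9 and 8.3 normalized counts in untreated replicates and at 10, 3.5 and 14.4 in isoproterenol replicates. Both genes had overlapping groups. For PDE7B the log2 fold change was 0.12 (interval -0.41 to 0.65), for PDE8B it was 0.33 (interval -0.76 to 1.43), and the limma adjusted p-values were 0.943 and 0.922. Both intervals held rises larger than the 0.18 seen in PDE1C, and the interval of PDE8B was the wider.

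Counting error was largest for these 2 genes. From the mean read number, counting alone gives an error of 36.1% for PDE8B and 18.7% for PDE7B in 1 sample. For the 8 members whose mean reached 100 normalized counts it was 2.61% to 7.25%, beside a coefficient of variation between replicates of 1.75% to 8.6%. Of the exonic bases of PDE8B, 51.64% are shared on the same strand with another annotated protein-coding gene, ENSG00000284762, and 6.85% lie opposite exons of WDR41, so its level is uncertain. Shared exonic bases were at most 7.61% of any other member (PDE7B, opposite PDE7B-AS1).

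**Figure D2:**
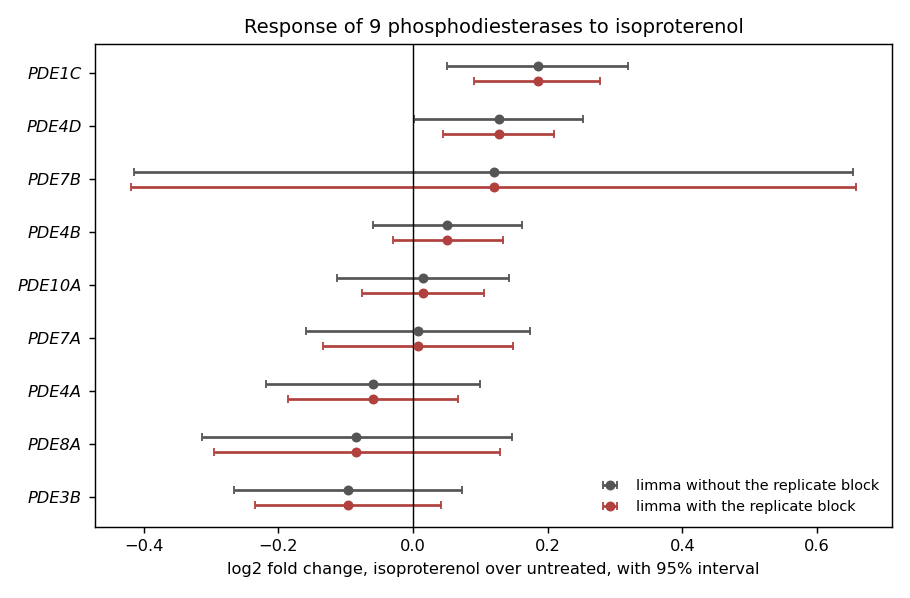
Log2 fold change of isoproterenol over untreated samples (horizontal axis) with its 95% interval for 9 members, without the replicate block in grey and with it in red. PDE8B is left out, since its interval reaches from -0.76 to 1.43. The intervals of PDE1C lie above 0 in both fits, those of PDE4D start at 0.00 and 0.04, and the other 7 cross 0.

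All 10 members passed the filter on low counts, and their calls were read against those over all genes tested. Without the replicate block, 0 of 10 passed an adjusted p of 0.05 in limma, against 3 of 18130 genes (0.0165%), and the count for the members was also 0 in unpaired edgeR and DESeq2. With the block 1 of 10 passed, PDE1C, against 885 genes (4.88%). An unadjusted p under 0.05 without the block was found for 2 of 10, PDE1C and PDE4D, against 7.68% of all genes. The groups did not overlap for 1 of 10, PDE1C, against 12.9%. All 3 pairs went the same way for 4 of 10, with PDE1C, PDE4B and PDE4D higher and PDE8A lower, against 36.1%.

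The median log2 fold change of the 10 members was 0.03, beside 0.00 over all genes tested. With isoproterenol 7 members were higher and 3 lower, while 50.5% of all tested genes were higher. The median size of the difference, leaving out its sign, was 0.09 both for the members and for all genes. For the 8 members whose mean reached 100 normalized counts, every 95% interval lay between -0.31 and 0.32 on the log2 scale. Fewer cells of a type and less RNA per cell cannot be told apart in such bulk samples.

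For 8 of 10 members, the replicate number held more of the variation between samples than the treatment did, against 71.3% of all tested genes. With 3 replicate numbers and 2 treatment groups, the replicate number takes the larger share more readily. Over the members, replicate number took a median of 55.4% of the variation of log2 levels and treatment 20.8%, beside 45.7% and 15.2% over all tested genes. PDE1C and PDE3B were the exceptions, at 59.8% with treatment and 31.7% with replicate number for PDE1C. In PDE10A, 76.3% went with the replicate number and 1.20% with treatment. What the replicate numbers stand for is not given in the labels.

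**Figure D3:**
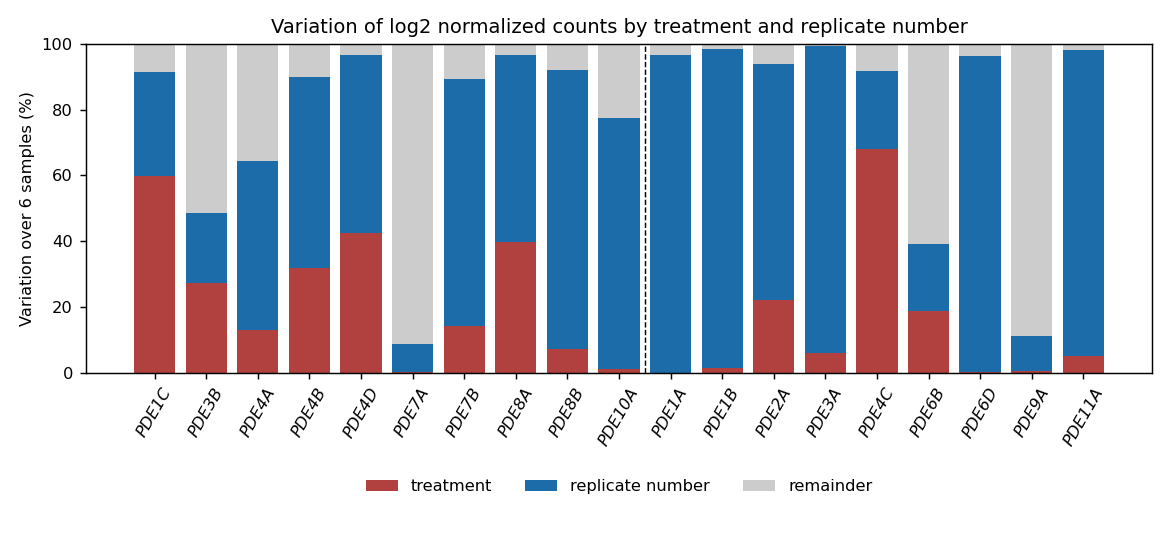
Share of the variation of log2 normalized counts over the 6 samples (vertical axis, percent) that goes with treatment (red), with replicate number (blue) and with neither (grey), for the 10 members left of the dashed line and 9 other phosphodiesterase genes right of it. Treatment takes its largest share among the members in PDE1C (59.8%), and replicate number takes over 90% in PDE1A, PDE1B, PDE3A, PDE6D and PDE11A.

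Levels can be compared between genes only per length, and the sum of all annotated exons (GENCODE release 44) was used first. On this scale, in RPKM (reads scaled to the gene's length and the library's total), PDE4B was the highest member at 7.994 in untreated samples, above every other member in all 6 samples. PDE4A (4.278), PDE4D (4.208) and PDE1C (3.589) followed, and neighbours among these 3 overlapped over the 6 samples. Next came PDE7A (2.137) and PDE3B (2.111), which overlapped with each other, and then PDE10A (1.555) and PDE8A (1.211), each apart from its neighbours. PDE7B (0.228) and PDE8B (0.0554) were the lowest, and their ranges did not overlap either.

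The 3 PDE4 genes together held 16.48 ± 0.179 of the 27.37 ± 0.624 RPKM summed over the 10 members in untreated samples, and 17.03 ± 0.422 of 28.29 ± 0.449 in isoproterenol samples (SD, n = 3 each). The summed level over the 10 members was 27.74, 26.65 and 27.72 in untreated and 28.80, 27.96 and 28.10 in isoproterenol replicates 1 to 3. It was thus higher with isoproterenol in each pair. The groups did not overlap on this scale, but their nearest values were 27.74 (untreated replicate 1) and 27.96 (isoproterenol replicate 2). With the length of the longest annotated transcript, the same samples were nearest, at 52.51 and 52.6. Both sums are scaled to total reads. A gap this narrow may depend on that scaling, and other scalings of the sum were not tested. Of single genes tested, 12.9% had groups without overlap in normalized counts and 36.1% went the same way in all 3 pairs. PDE4D and PDE1C are part of that sum, so it does not show a rise shared by the other members. PDE1C made up 13.1% of it in untreated and 14.4% in isoproterenol samples.

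The order depended on the length for some genes. With the length of the longest annotated transcript, PDE10A moved from rank 7 to rank 3, because its exons add up to 37993 bases over 40 annotated transcripts while the longest transcript has 9334. PDE4D moved to rank 2 and PDE4A to rank 4, and PDE4B stayed at rank 1, PDE7B at 9 and PDE8B at 10. Counts were made per gene and so add up isoforms, which for PDE4D means 27 annotated transcripts. The RefSeq promoter windows of PDE4D numbered 8.

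**Figure D4:**
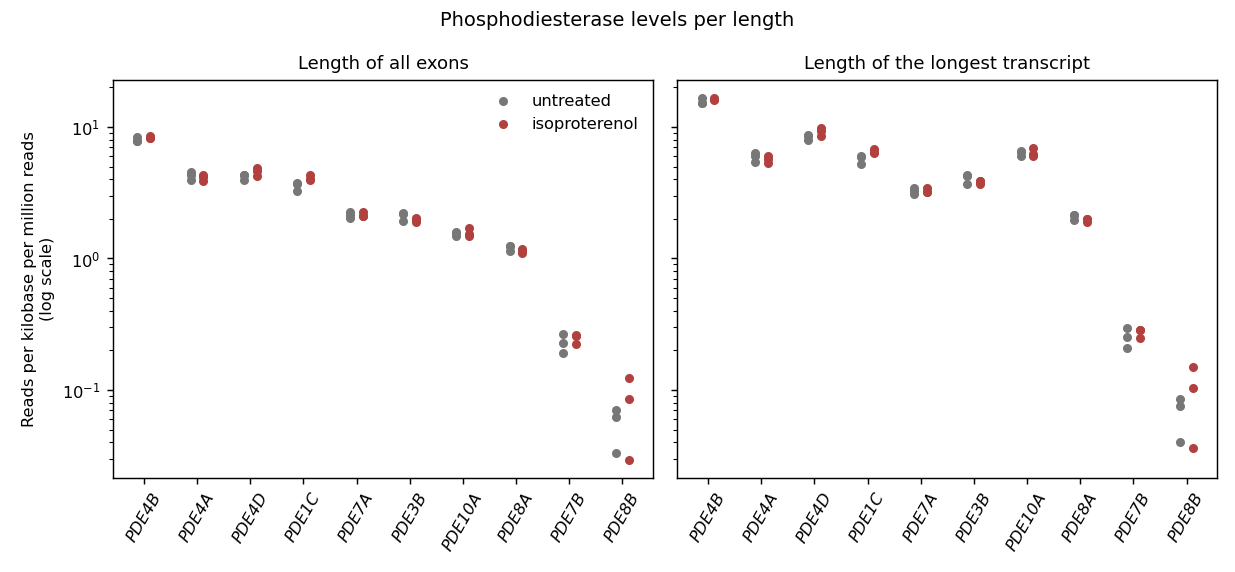
Levels in RPKM (vertical axis, log scale) of the 10 members in each of the 3 untreated (grey) and 3 isoproterenol samples (red), with the length of all exons on the left and of the longest transcript on the right. PDE4B is the highest and PDE8B the lowest on both sides, while PDE10A has rank 7 on the left and rank 3 on the right.

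Other phosphodiesterase genes gave no call. Of 14 on a list written from general knowledge, 9 were in the table and all 9 were tested, 4 of them higher and 5 lower with isoproterenol, with a median log2 fold change of 0.00. The count past an adjusted p of 0.05 was 0 in limma, edgeR and DESeq2, each with and without the block, and 0 had an unadjusted p under 0.05 in limma without the block. The calcium-dependent enzymes PDE1A and PDE1B, the paralogs of PDE1C, had log2 fold changes of 0.00 (SE 0.13) and 0.03 (SE 0.099), and the difference between them and PDE1C was not tested. PDE2A, which cGMP stimulates, was at 0.06 (SE 0.059) and higher in all 3 pairs. PDE3A, the paralog of PDE3B, was at -0.19 (SE 0.27) and lower in all 3 pairs, while its level ran from 77.8 in isoproterenol replicate 1 to 162.6 in untreated replicate 2. PDE11A, which hydrolyses both nucleotides, was at -0.07 (SE 0.13).

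PDE4C, the fourth PDE4 gene, was measured at 7.2 to 8.4 normalized counts in untreated and 9.2 to 13.0 in isoproterenol samples. Its groups did not overlap, yet its interval reached from -0.43 to 1.27 on the log2 scale, and 73.82% of its exonic bases are shared with another gene on the same strand. The cGMP-specific PDE9A was at -0.01 (SE 0.076), the photoreceptor subunit PDE6B at -0.16 (SE 0.17), and PDE6D, the prenyl-binding protein first found with PDE6, at 0.01 (SE 0.060). Per exon length, PDE6D (21.33) and PDE2A (8.317) stood above PDE4B in untreated samples, and the ranges of PDE2A and PDE4B overlapped. With the longest transcript this order turned, with PDE4B at 15.7 above PDE2A at 13.94 and no overlap.

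Further lists describe the pathway on which phosphodiesterases act. Over all 18130 genes tested, the fits with the block called 885 (4.88%) in limma, 977 in edgeR and 143 in DESeq2. Of 10 immediate early genes, which transcription through CREB and other factors induces rapidly, 9 passed in limma with the block and all of those were higher. In limma without it 1 passed, NR4A3, an orphan nuclear receptor (means of 1225 and 1715 normalized counts, log2 fold change 0.49, limma adjusted p = 0.0324). Log2 fold changes of the 10 genes ran from 0.449 to 4.393 with a median of 1.285, so NR4A3 lay near the low end. Without the block edgeR called 1 of the 10 and DESeq2 called 5, and with it they called 10 and 6. Of 8 adenylyl cyclases 0 passed with the block in limma (smallest for ADCY1, log2 fold change -0.08, adjusted p = 0.0519), 0 had an unadjusted p under 0.05 without it, and blocked edgeR called 1. Of 9 protein kinase A subunits and inhibitors 1 passed, PRKAR2A, a regulatory subunit that fell by 0.11 on the log2 scale (adjusted p = 0.0157 in limma with the block, 0.595 without it), while blocked DESeq2 called 0 of the 9.

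Among 20 genes for anchors and partners of phosphodiesterases, 2 rose and 2 fell in limma with the block, which called 4.88% of all genes. With the block, edgeR called 5 of the 20 and DESeq2 called 2. AKAP6, which anchors protein kinase A together with PDE4D, rose by 0.18 on the log2 scale (adjusted p = 3.43e-08). DISC1, which binds PDE4 enzymes, rose by 0.40 (adjusted p = 0.00926). CALM2, which encodes calmodulin, the activator of PDE1 enzymes, fell by 0.13 (adjusted p = 2.45e-08). AKAP6, DISC1 and CALM2 did not pass without the block.

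Of 7 receptor and G protein genes, GNAS and GNAI1 passed in limma with the block. GNAS, which encodes the Gs alpha subunit, rose by 0.25 (limma adjusted p = 1.31e-39, against 0.655 without the block). GNAI1, an inhibitory alpha subunit, fell by 0.14 (limma adjusted p = 0.000405, against 0.399 without the block). Blocked DESeq2 called 1 of the 7. Of 9 CREB factors and their regulators 1 passed, CRTC1, a CREB coactivator that fell by 0.17 (adjusted p = 0.0025 in limma with the block), while blocked DESeq2 called 0 of the 9. Without the block, 0 genes of these 2 lists passed in limma, edgeR or DESeq2. In limma without the block, 1 and 3 of them had an unadjusted p under 0.05, against 7.68% of all genes. The share of all genes called in limma with the block was 4.88%.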

How the data were processed

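The values deposited are a signal, 1 for each gene in each sample: per the labels and the study's methods, the authors sequenced poly(A) RNA from directional libraries, aligned reads to GRCh38 with STAR, counted them per gene with featureCounts and divided by DESeq2 size factors. Versions and the strand setting are not given in the sources used here. Whole reads were recovered for 100% of values (within 0.01 of a read). Genes with more than 5 reads in at least 4 samples were tested (18130). limma 3.58.1 (R 4.3.3; trend and robust moderation) was run two-sided on log2(normalized count + 1), with Benjamini-Hochberg adjustment over all genes tested, so fold changes of low genes are understated. edgeR 4.0.16 and DESeq2 1.42.0 on the recovered reads were alternatives. Intervals are 95%. The scripts were tested on simulated data.

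Nothing in the labels says that replicates came from separate cultures, so p-values measure the spread between these samples, which may be technical. The replicate numbers were taken as pairs because deviations from the group means correlated at 0.269, 0.493 and 0.388 between same-numbered samples over 11587 genes, each above 0.1. The members and all lists were chosen with earlier results of these data known. Named genes were all members, the other phosphodiesterases, the list genes past an adjusted p of 0.05 without the block (otherwise up to 4 with the smallest blocked p, of which those called and ADCY1 are given), and the 3 genes most like PDE1C, and some list genes that this rule names are not reported here. Alternatives covered scaling, pseudocount, filter, tool, pairing, gene length and samples left out. Of 10 members, 8 matched RefSeq promoter windows. PDE3B and PDE7A were not among them.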

Additional observations from a re-analysis of the deposited data

How the results depend on the processing

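Of 205 values of single members under the alternatives, 191 kept their direction and their side of the threshold, 6 passed it and 8 reversed. The reversals were in PDE10A (-0.018 without untreated replicate 1, -0.041 without isoproterenol replicate 3, and -0.002 and -0.013 without pairs 1 and 3), PDE7A (-0.039 without untreated replicate 2, -0.028 without isoproterenol replicate 2, -0.074 without pair 2) and PDE8B (-0.044 without isoproterenol replicate 3), and the cause was not tested. With 1 sample left out at a time, PDE10A ran from -0.041 to 0.056, PDE7A from -0.039 to 0.055 and PDE8B from -0.044 to 0.848.

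The replicate block raised the number of genes past an adjusted p of 0.05 from 3 to 885 in limma, to 977 in edgeR, to 143 in DESeq2 and to 927 with TMM scaling. DESeq2 without the block called 21. With samples or pairs left out, the number ran from 2 to 67 (without isoproterenol replicate 2) in the unpaired fit, and was 531, 665 and 456 in the blocked fit without pairs 1, 2 and 3. Members passing numbered 0 without the block, 1 with it (PDE1C, also with TMM scaling), 2 in edgeR with it (PDE1C and PDE4D), 0 in DESeq2 with it, and 0 to 1 with samples or pairs left out. The block changed no other member's call. The members' median log2 fold change was 0.033, and 0.011 when genes under a mean of 50 were dropped, which removed PDE7B and PDE8B, and 0.007 to 0.058 with 1 sample left out, with 0.060 without pair 3 in the blocked fit. DESeq2 gave no adjusted p for PDE8B in either fit and for PDE7B with the block. Depth limited PDE7B and PDE8B.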

Other observations

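The ratio of PDE1C to PDE3B normalized counts, a pair chosen after their values were seen, was 2.062, 2.086 and 2.054 without treatment and 2.738, 2.379 and 2.435 with isoproterenol, in replicates 1 to 3. The ratio does not depend on the scaling between samples, and it lay higher in every isoproterenol sample than in any untreated one. Among the 8 members whose mean reached 100 normalized counts, PDE1C rose most and PDE3B fell most. The gap is thus a description and no test. The ratio of PDE1C to its paralog PDE1B was 0.904, 0.938 and 0.841 in untreated and 0.981, 1.089 and 0.913 in isoproterenol replicates. Those groups overlapped, and the ratio rose in each pair. The groups also overlapped for PDE4D to PDE4A (2.104 to 2.646 untreated, 2.375 to 2.906 with isoproterenol). The ratio of PDE4D to PDE4B was 0.943, 0.932 and 1.013 in untreated and 1.058, 0.951 and 1.035 in isoproterenol replicates, with overlapping groups, and higher with isoproterenol in each pair. Between replicates, PDE3A and PDE1B differed by more than with treatment: in both groups replicate 2 was the highest sample for PDE3A (162.6 untreated and 146.5 with isoproterenol) and the lowest for PDE1B (1028.6 and 1070.2).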
